A study of Mus musculus with 2 samples.

Results

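Antioxidant defence in the adrenal gland was described through 42 genes: the superoxide dismutases and catalase, the glutathione peroxidases, the peroxiredoxins, the thioredoxin and glutaredoxin systems, glutathione synthesis, the glutathione transferases, and the NRF2 and KEAP1 regulators. Members were taken by gene name from a fixed list of symbols, and all 42 were found. Nnt is annotated as 2 gene models, which were kept apart, so that the list covered 43 gene models. These were 43 of the 15239 annotated genes with a read in replicate 1 and 42 of the 13943 in replicate 2, where Gpx7 had no read. The samples were 2 libraries of long-read RNA sequencing from adrenal gland tissue of C57BL/6J mice, numbered by the labels as biological replicates 1 and 2 of 1 untreated group. Long-read sequencing aims to read each cDNA molecule as a whole, so that a read can be assigned to 1 transcript structure. Not all reads allowed this. Of the reads of annotated genes, 12.6% in replicate 1 and 10.2% in replicate 2 were incomplete matches, which name no full structure. A label field calls the tissue wild type and male, while sex was entered as not collected and age as unknown. The libraries have separate biosamples that share 1 donor entry, so differences between them may be technical. The p-values take reads as independent and cover counting error only, with no spread between libraries or animals estimated.

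Superoxide dismutases turn superoxide into hydrogen peroxide, which catalase, glutathione peroxidases and peroxiredoxins then remove. Peroxiredoxins are recharged by thioredoxin and glutathione peroxidases by glutathione, and both of these are kept reduced with electrons from NADPH. In the adrenal cortex the cytochromes that make steroid hormones leak electrons to oxygen, and mitochondrial thioredoxin, peroxiredoxin and Nnt, which makes NADPH in mitochondria, are known to protect steroid synthesis there.

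The libraries differed in a way that touched every value given here. Replicate 1 held 848782 reads and replicate 2 held 545229, so that 1 read was worth 1.18 and 1.83 CPM, or reads per 1000000 reads of the library, and the limit that a count of 0 allows, 3 reads, was 3.53 and 5.5 CPM. The annotated transcripts to which reads belonged had a median length of 1648 bases in replicate 1, against 2740 bases for replicate 2, and 44% of them in replicate 1, against 5.47% in replicate 2, belonged to transcripts under 1500 bases. Defining markers of the tissue were present in both libraries, with all 8 markers of the cortex at a summed 58063 CPM in replicate 1 and 92251 CPM in replicate 2, and all 7 of chromaffin cells at 10171 and 23258 CPM. Single markers went both ways. Hsd3b1 (11679 and 4561 CPM) and Mc2r (73 and 38.5 CPM) of the cortex stood higher in replicate 1. So did Th (2831 and 1489 CPM) and Pnmt (694 and 160 CPM) of chromaffin cells, while every other marker of both lists stood lower. Markers of red blood cells summed to 1925 CPM in replicate 1 and 160 CPM in replicate 2, with 5 of 7 read in each library and Slc4a1 at 0 in both. The globin markers, which have short transcripts, stood higher in replicate 1, while Alas2 (12 and 17 reads, 14.1 and 31.2 CPM) stood lower. The 6 macrophage markers summed to 996 and 273 CPM, of which Lyz2 gave 550 of 845 reads in replicate 1, while Adgre1 (11 and 26 reads) and Csf1r (17 and 36 reads) stood lower in replicate 1. The 5 endothelial markers summed to 220 and 879 CPM, the 6 adipocyte markers to 218 and 45.9 CPM, and kidney tubule markers had 1 read and 0. In tissue RNA, fewer cells of a type and less RNA per cell cannot be told apart.

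Members took 14013 reads in replicate 1, which is 1.65% of the library (exact 95% interval 1.62 to 1.68%), and 2585 reads in replicate 2, which is 0.474% (0.456 to 0.493%). The mean was 1.06% ± 0.832 (SD, n = 2). This 3.48-fold gap was not spread evenly over the roles. Glutaredoxins were 13.1-fold, glutathione transferases 12.4-fold, glutathione peroxidases 10.8-fold and peroxiredoxins with sulfiredoxin 9.95-fold more abundant in replicate 1. The thioredoxin system took 0.211% of reads in replicate 1 and 0.204% in replicate 2, a ratio of 1.03, although its members moved in opposite directions. Glutathione synthesis and recycling had a ratio of 1.13, and the regulators NRF2 and KEAP1 with Nqo1 had a ratio of 0.306.

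Each gene was tested between the libraries by Fisher's exact test, two-sided, on its reads against all other reads, adjusted by Benjamini-Hochberg over the 9879 genes with at least 10 reads. The test compares these 2 libraries and no conditions. Of the 42 gene models tested, 39 passed, where 64.4% of all genes tested did. Members that were higher in replicate 1 numbered 31, against 27.9% of all genes, and members that were lower in replicate 1 numbered 8, against 36.6% of all genes. Txnrd2, Gclc and Gss did not pass, and Nqo1, with 4 reads and 1 read, was not tested. The median log2 ratio of replicate 1 over replicate 2 (on CPM + 1) was 2.82 for the members and -0.38 for all genes. With TMM scaling and an exact binomial test, under which 61.3% of all genes passed, 32 members were higher in replicate 1 (34.2% of all genes) and 8 were lower (27.1%). With DESeq2 size factors, under which 60.2% of all genes passed, the members' counts were also 32 (35.1% of all genes) and 8 (25.1%). Those scalings moved the median of all genes to 0.08 and 0.16, and the share of all called genes that was higher in replicate 1 was 43.3% on total reads, 55.8% with TMM and 58.4% with DESeq2 size factors.

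**Figure D1:**
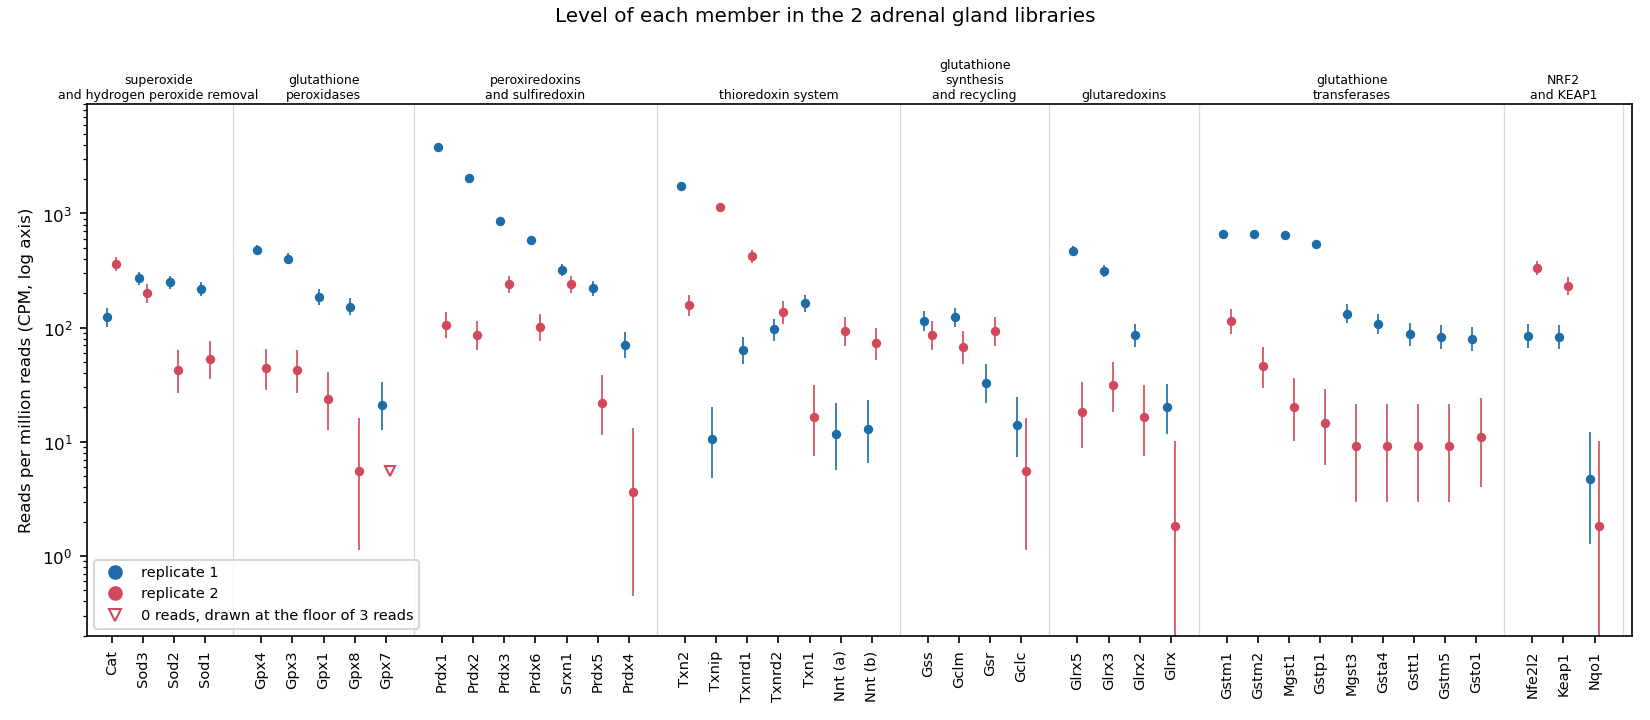
Level of each gene in both libraries, in CPM on a log axis, grouped by role and ordered within a role by mean level. Points are replicate 1 (left of each pair) and replicate 2 (right), bars are exact 95% Poisson intervals, Nnt (a) is ENSMUSG00000025453.18 and Nnt (b) is ENSMUSG00000116207.1, and the triangle marks the limit of 5.5 CPM for Gpx7, which had 0 reads in replicate 2; Prdx1 reached 3836 CPM in replicate 1, against 106 CPM in replicate 2, while Txnip had 10.6 CPM in replicate 1, against 1137 CPM in replicate 2.

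Most members have short transcripts, with a median length of 1478 bases against 2541 bases for all genes tested, and the ratio between the libraries changed with length. Among members with transcripts of 1000 to 1500 bases all 14 were higher in replicate 1, as were 75.3% of all genes of that length. Of the 9 members of 2000 to 3000 bases, 4 stood higher in replicate 1 and the remaining 5 lower, where 12.8% of all genes of that length were higher. Of the 7 members of 3000 bases or more, 4 were higher in replicate 1 and 2 lower, with a median log2 ratio of 0.86, where 8.47% of all genes of that length were higher and their median was -1.26. When the running median of the ratio over genes ordered by length was taken out, 41.1% of all genes passed, and 17 members lay above the genes of their length in replicate 1 (21.2% of all genes did) and 6 below (19.9% of all genes did). Of the 31 members higher as read 15 were among those 17, and of the 8 lower as read 4 were among those 6. The members' median log2 ratio was then 0.70. With unannotated spliced models included in the length, which was tried after the data had been seen and under which 37.7% of all genes passed, 16 were above (19.7% of all genes) and 6 were below (18%).

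**Figure D2:**
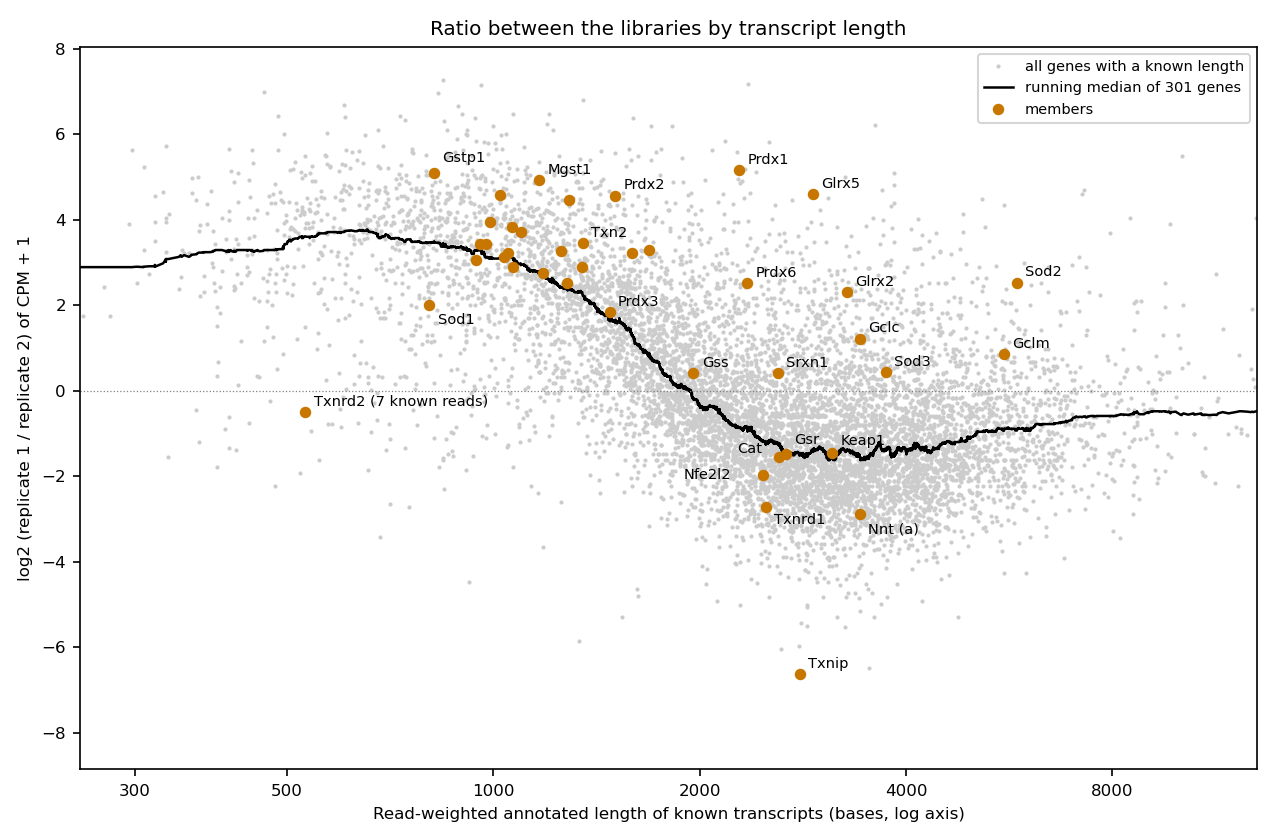
log2 ratio of replicate 1 over replicate 2 against the annotated length of a gene's known transcripts, weighted by reads, with all genes in grey, their running median as a line and members in orange. Many short members lie near the line, Prdx1, Glrx5, Sod2, Glrx2 and Prdx6 lie well above it, and Txnip, at a log2 ratio of -6.62, lies far below. Nqo1 and Nnt (b), which have too few reads or no known reads, are not drawn, and Txnrd2 is drawn at the length of its 7 known reads.

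Sod1 encodes the copper and zinc superoxide dismutase of the cytosol. Sod1 had 185 reads (218 CPM) in replicate 1 and 29 reads (53.2 CPM) in replicate 2, a 4.1-fold difference (exact 95% interval 2.76 to 6.29). Its transcript is among the shortest here, and at 807 bases Sod1 lay below genes of its length, with a log2 ratio of -1.45 after the length trend was removed. Sod2, the manganese enzyme of mitochondria, had 211 reads (249 CPM) and 23 reads (42.2 CPM). Reads of Sod2 stood to those of Sod1 at 1.14 (0.932 to 1.4) in replicate 1 and 0.793 (0.438 to 1.42) in replicate 2, so that both intervals include 1. Sod3, the secreted enzyme, had 231 reads (272 CPM) and 109 reads (200 CPM), a 1.36-fold difference (1.08 to 1.73, adjusted p = 0.0135, Fisher's exact test), and a log2 ratio of 1.80 once the length trend was removed. Cat, the catalase of peroxisomes, went the other way, with 105 reads (124 CPM) in replicate 1 and 198 reads (363 CPM) in replicate 2, so that it held 14.3% of the reads of these 4 genes in replicate 1 and 55.2% in replicate 2. With the length trend removed Cat was at -0.27 and no longer passed.

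Gpx1, Gpx3, Gpx4, Txnrd1 and Txnrd2 encode selenoproteins, in which a TGA codon is read as selenocysteine in the active site. The stretches are shown because that codon is what sets these enzymes apart from Gpx7 and Gpx8, which have a cysteine there. They are coding sequence of the GENCODE M21 transcripts on mm10, 5′ to 3′ on the gene's strand, with the selenocysteine or cysteine codon in capitals; the last 2 end with the stop codon. The codons lie at chr9:108339451-108339453 for Gpx1, chr11:54907256-54907258 for Gpx3, chr10:80054737-80054739 for Gpx4, chr4:108403430-108403432 for Gpx7, chr13:113045661-113045663 for Gpx8, chr10:82896037-82896039 for Txnrd1 and chr16:18477772-18477774 for Txnrd2.
Gpx1: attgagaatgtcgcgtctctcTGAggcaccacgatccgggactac
Gpx3: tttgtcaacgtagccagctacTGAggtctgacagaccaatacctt
Gpx4: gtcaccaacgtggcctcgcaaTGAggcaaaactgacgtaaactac
Gpx7: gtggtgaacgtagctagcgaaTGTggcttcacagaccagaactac
Gpx8: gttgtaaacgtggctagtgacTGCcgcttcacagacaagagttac
Txnrd1: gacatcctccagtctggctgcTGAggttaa
Txnrd2: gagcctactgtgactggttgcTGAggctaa

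All 5 glutathione peroxidase members passed the test and were higher in replicate 1, where 27.9% of all genes tested were. Gpx4, which reduces lipid peroxides inside membranes, led the family with 409 reads (482 CPM) in replicate 1 and 24 reads (44 CPM) in replicate 2. Gpx3, the secreted plasma enzyme, had 342 reads (403 CPM) and 23 reads (42.2 CPM), and Gpx1, the main enzyme of the cytosol, had 157 reads (185 CPM) and 13 reads (23.8 CPM). Within each library the family was divided alike, with Gpx4 at 38.7% of its reads in replicate 1 and 38.1% in replicate 2, and Gpx3 at 32.4% and 36.5%. Gpx4 stood to Gpx1 at 2.61 (2.16 to 3.15) in replicate 1 and at 1.85 (0.903 to 3.95) in replicate 2. After the length trend was removed, Gpx1 and Gpx4 had log2 ratios of -0.19 and 0.12 and did not pass, while Gpx3 stayed higher in replicate 1 at 1.93 (adjusted p = 3.22e-13, exact binomial test). The cysteine forms, which sit in the endoplasmic reticulum, were low in replicate 2. Gpx8 had 130 reads (153 CPM) and 3 reads (5.5 CPM), and Gpx7 had 18 reads (21.2 CPM) and 0, which against the limit of 3 reads is at least 3.85-fold higher in replicate 1. Neither passed once the length trend was removed (adjusted p = 0.0832 for Gpx8 and 0.389 for Gpx7, exact binomial test).

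Peroxiredoxins were the most abundant members of replicate 1. Prdx1 (chr4:116685544-116700822), the main peroxiredoxin of the cytosol, had 3256 reads (3836 CPM) in replicate 1 and 58 reads (106 CPM) in replicate 2. It ranked as gene 15 by level in replicate 1 and as gene 1739 in replicate 2, a 36.1-fold difference (27.8 to 47.6). Prdx2, its close relative, abundant in red blood cells and nerve cells, had 1747 reads (2058 CPM) and 47 reads (86.2 CPM). Red blood cell markers stood at a summed 1925 CPM in replicate 1 and 160 CPM in replicate 2. As read, the globin markers were 11.9-fold (Hbb-bs) to 25.4-fold (Hbb-bt) higher in replicate 1, and Alas2 did not pass. With the length trend removed none of these markers passed. Log2 ratios were then -0.20 for Hbb-bs, 0.29 for Hba-a1, 0.54 for Hba-a2, 0.72 for Hbb-bt and -0.71 for Alas2. Prdx2 was at 4.56 as read and at 2.90 with the trend removed. Removing the trend cannot tell transcript length from cell content, and the part of red blood cells in the Prdx2 value was not tested. Exons of Prdx2 overlap those of Junb (173 bases) and Rnaseh2a (177 bases) on the opposite strand, and how strand was set for these libraries is not stated in the labels. Prdx3, the peroxiredoxin of mitochondria, had 734 reads (865 CPM) and 131 reads (240 CPM), and lay on the length trend with a log2 ratio of 0.13 once it was removed. The order of Prdx2 and Prdx3 differed between the libraries. Prdx2 had 2.38 reads per Prdx3 read (2.18 to 2.6) in replicate 1 and 0.359 (0.251 to 0.504) in replicate 2, although their transcripts have like lengths of 1507 and 1478 bases. Prdx3 held 10.9% of the reads of this role in replicate 1 and 30% in replicate 2, where it had the most reads of any peroxiredoxin.

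Prdx6, which uses glutathione rather than thioredoxin, had 495 reads (583 CPM) in replicate 1 and 55 reads (101 CPM) in replicate 2. Prdx5, found in mitochondria, peroxisomes and the cytosol, had 188 and 12 reads, and Prdx4, the form of the endoplasmic reticulum, had 60 and 2. Prdx3 stood to Prdx5 at 3.9 (3.32 to 4.61) in replicate 1 and at 10.9 (6.04 to 21.7) in replicate 2, intervals that do not overlap. Srxn1, sulfiredoxin, restores peroxiredoxins whose cysteine has been over-oxidised. It had 271 reads (319 CPM) in replicate 1 and 131 reads (240 CPM) in replicate 2, a 1.33-fold difference (1.07 to 1.65, adjusted p = 0.0138, Fisher's exact test), and equalled Prdx3 in replicate 2. With the length trend removed its log2 ratio was 1.63, while Prdx4 and Prdx5, at 0.85 and 0.84, did not pass.

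The thioredoxin system was divided, with 2 gene models higher and 4 lower in replicate 1, where 27.9% and 36.6% of all genes tested were. Txn2 (chr15:77915047-77929006), the thioredoxin of mitochondria, had 1484 reads (1748 CPM) in replicate 1 and 86 reads (158 CPM) in replicate 2. Txn1, the thioredoxin of the cytosol, had 138 reads (163 CPM) and 9 reads (16.5 CPM). With the length trend removed Txn2 stayed higher in replicate 1, at a log2 ratio of 1.22, while Txn1, at 0.11, did not pass. Mitochondrial thioredoxin outnumbered the cytosolic one in both libraries, with intervals that overlap, at 10.8 (9.03 to 12.9) in replicate 1 and 9.56 (4.81 to 21.6) in replicate 2, with transcripts of 1350 and 1051 bases.

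Txnip (chr3:96557957-96561883), which binds thioredoxin and inhibits it and is known to respond to glucose, had 9 reads (10.6 CPM) in replicate 1 and 620 reads (1137 CPM) in replicate 2. It was gene 7616 by level in replicate 1 and gene 76 in replicate 2, a 107-fold difference (56.1 to 236), and made up 0.503% and 55.8% of the reads of the thioredoxin system. The log2 ratio of Txnip was -6.62 as read and -5.13 after the length trend was removed (adjusted p = 1.23e-101, exact binomial test), so genes of its length of 2801 bases differed far less. In replicate 2 its reads were split between models that differ by 3 coding bases at the start of exon 2, with 326 reads of Txnip-202 and 281 of Txnip-201, or 53.2% (49.1 to 57.2%) and 45.8% (41.8 to 49.9%) of 613. Their coding lengths are 1191 and 1188 bases. The stretch across the junction of exons 1 and 2 is shown because its 3 extra bases, in capitals at chr3:96558889-96558891 on mm10, set the models apart.
Txnip-202: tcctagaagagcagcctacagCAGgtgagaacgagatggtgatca
Txnip-201: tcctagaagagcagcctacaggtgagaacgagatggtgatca

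The thioredoxin reductases, which pass electrons from NADPH to thioredoxin, differed from each other. Txnrd1, the cytosolic enzyme, had 54 reads (63.6 CPM) in replicate 1 and 231 reads (424 CPM) in replicate 2, and stayed lower in replicate 1 after the length trend was removed, at a log2 ratio of -1.50. Txnrd2, the mitochondrial enzyme, had 82 reads (96.6 CPM) and 74 reads (136 CPM), and did not pass (adjusted p = 0.0606, Fisher's exact test). Txnrd1 stood to Txnrd2 at 0.659 (0.458 to 0.94) in replicate 1 and at 3.12 (2.39 to 4.11) in replicate 2. Annotated models of Txnrd1 that share all coding exons differed in their first exons. Txnrd1-208 held 60% of 25 reads in replicate 1 and 82.1% of 223 in replicate 2, and Txnrd1-206, which starts at another first exon, held 20% and 11.7%.

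Txnrd2 lies on chromosome 16 (chr16:18426384-18479073, plus strand) and was the one member tested for model use whose leading model was not annotated. The same unannotated chain of 17 exons held 55 of 78 reads in replicate 1, or 70.5% (59.1 to 80.3%), and 49 of 73 in replicate 2, or 67.1% (55.1 to 77.7%). Annotated transcripts place a very small exon 9 between the flanking exons, of 7 bases in Txnrd2-212 (chr16:18451971-18451977) and of 20 bases in Txnrd2-203 (chr16:18453721-18453740), and neither transcript had a read. These exons are printed in capitals with 21 coding bases on each side, because most reads ran past them.
Txnrd2-212: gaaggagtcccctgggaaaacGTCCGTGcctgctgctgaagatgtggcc
Txnrd2-203: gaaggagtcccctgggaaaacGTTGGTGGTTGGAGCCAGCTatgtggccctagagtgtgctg

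In the deposited structures, 64 of 71 reads over this stretch in replicate 1, or 90.1% (80.7 to 95.9%), extended exon 8 by 12 bases and joined it to an acceptor 13 bases upstream of that of Txnrd2-203. In replicate 2 this was so for 53 of 70, or 75.7% (64 to 85.2%). Joining the annotated end of exon 8 to the same acceptor made up 6 reads and 9 reads. In replicate 2, 2 reads began the next exon at the start of the 20-base exon and ran on from there. Between the annotated end of exon 8 and the acceptor of Txnrd2-203, the main read model thus placed 25 bases, where both annotated forms hold 20. The bases of the reads are not in the files used here, and how such small exons fare in alignment was not tested.

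Nnt, the nicotinamide nucleotide transhydrogenase of the inner mitochondrial membrane, is known for a deletion of several exons in C57BL/6J mice, the strain of both samples and of the mm10 reference itself. Its gene model ENSMUSG00000025453.18 had 10 reads (11.8 CPM) in replicate 1 and 51 reads (93.5 CPM) in replicate 2, and ENSMUSG00000116207.1, which overlaps it on the same strand over 3339 exonic bases, had 11 reads (13 CPM) and 40 reads (73.4 CPM). With the length trend removed ENSMUSG00000025453.18 stayed lower in replicate 1, at a log2 ratio of -1.34. ENSMUSG00000116207.1 has no known reads to give a length. With unannotated spliced models in the length it was at -0.87 and did not pass. How reads were divided between these models was not tested. At the junction of exons 6 and 7 of Nnt-202, every spanning read joined these exons directly. This was so for 9 of 9 and 4 of 4 reads of these models in replicate 1 and for 50 of 50 and 38 of 38 in replicate 2. Whether this junction lies at the deletion was not tested, so these reads do not bear on the deletion. The junction is shown from Nnt-202, minus strand, with its 3 bases on each side in capitals, joining chr13:119386579 to chr13:119381863 on mm10.
Nnt-202: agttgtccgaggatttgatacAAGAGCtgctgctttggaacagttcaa

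Reads of the model ENSMUSG00000116207.1 often began outside the annotated gene. In replicate 1, 4 of its 11 reads had a first exon upstream of the annotated start of Nnt, and in replicate 2, 29 of 40 did. The most used of these exons, with 18 reads in replicate 2, lay at chr13:119428587-119428922, which is 19590 bases upstream, and others lay 343 and 391 bases upstream. Exons that the reference lacks cannot appear in models built on it, so these structures bear only on the exons that mm10 holds.

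Glutathione is made by glutamate-cysteine ligase, with the catalytic subunit Gclc and the modifier subunit Gclm, and then by Gss. Gclm had 105 reads (124 CPM) in replicate 1 and 37 reads (67.9 CPM) in replicate 2, while Gclc had 12 reads (14.1 CPM) and 3 reads (5.5 CPM). Modifier outnumbered catalytic transcripts 8.75-fold (4.8 to 17.5) in replicate 1 and 12.3-fold (3.91 to 62.5) in replicate 2, so this order held in both libraries. Gss had 98 and 47 reads and did not pass on total reads, but passed as higher in replicate 1 with TMM scaling (log2 ratio 0.88), with DESeq2 size factors (0.96) and with the length trend removed (0.61). With unannotated spliced models in the length Gss did not pass (0.52, adjusted p = 0.0986, exact binomial test). Exons of Gss share 395 bases with those of Acss2 on the opposite strand, which had 25 and 127 reads. Gsr, glutathione reductase, which returns oxidised glutathione to the reduced form, had 28 reads (33 CPM) and 51 reads (93.5 CPM), a ratio of 0.353 (0.214 to 0.57), and lay on the trend of genes of its length, at a log2 ratio of -0.02.

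All 4 members of the glutaredoxin family, which works with glutathione, were higher in replicate 1, where 27.9% of all genes tested were. Glrx5, needed for iron-sulphur clusters in mitochondria, had 398 reads (469 CPM) in replicate 1 and 10 reads (18.3 CPM) in replicate 2. Glrx3, its counterpart in the cytosol, had 268 reads (316 CPM) and 17 reads (31.2 CPM). Glrx2 of mitochondria had 73 and 9 reads, and Glrx, the classical cytosolic enzyme, was low in both with 17 reads and 1 read. Glrx5 stood to Glrx2 at 5.45 (4.24 to 7.1) in replicate 1 and at 1.11 (0.406 to 3.09) in replicate 2, so the lead of Glrx5 was not detectable in replicate 2. With the length trend removed Glrx5, Glrx3 and Glrx2 stayed higher in replicate 1, at log2 ratios of 5.99, 2.47 and 3.70. Glrx, at 0.59, did not pass (adjusted p = 0.837, exact binomial test).

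All 9 glutathione transferases, which couple glutathione to reactive compounds, were higher in replicate 1, where 27.9% of all genes tested were. The differences ran from 5.8-fold for Gstm1 to 36.5-fold for Gstp1. Gstm1 had 560 reads (660 CPM) in replicate 1 and 62 reads (114 CPM) in replicate 2, and Gstm2 had 559 reads (659 CPM) and 25 reads (45.9 CPM). These mu-class enzymes were equal in replicate 1, at 0.998 Gstm2 reads per Gstm1 read (0.886 to 1.12), and unequal in replicate 2, at 0.403 (0.243 to 0.651). Gstp1, the pi-class enzyme, had 455 reads (536 CPM) and 8 reads (14.7 CPM), and Mgst1, the membrane-bound enzyme, had 548 reads (646 CPM) and 11 reads (20.2 CPM). The alpha-class Gsta4 had 92 and 5 reads, Gstm5 71 and 5, the theta-class Gstt1 74 and 5, the omega-class Gsto1 68 and 6 and the membrane-bound Mgst3 113 and 5. After the length trend was removed, Gstp1, Mgst1 and Gstm2 stayed higher in replicate 1, at log2 ratios of 1.62, 2.18 and 0.70, and the other 6 did not pass.

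Some transferases have near-identical copies that reads could reach by error. The coding sequence of Gstp1 is 98.1% identical to that of Gstp2, which had 3 reads and 0, and that of Gstm1 is 85.9% identical to Gstm2 and 89.4% to Gstm3, which had 2 reads and 0. Prdx6 is 92.9% identical to Prdx6b, which had no read in either library. How reads of near-identical copies were divided was not tested.

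The regulators stood lower in replicate 1, where most of the enzymes stood higher. Nfe2l2 (chr2:75675513-75704641) encodes NRF2, the transcription factor that switches on many of these enzymes, and Keap1 (chr9:21229730-21239361) encodes the adaptor that marks NRF2 for breakdown. Nfe2l2 had 72 reads (84.8 CPM) in replicate 1 and 182 reads (334 CPM) in replicate 2, and Keap1 had 71 reads (83.6 CPM) and 126 reads (231 CPM). Both were lower in replicate 1, at ratios of 0.254 (0.191 to 0.336) and 0.362 (0.267 to 0.488), but with the length trend removed Keap1 was at 0.12 and no longer passed, while Nfe2l2 stayed lower at -0.80. Nfe2l2 stood to Keap1 at 1.01 (0.72 to 1.43) in replicate 1 and at 1.44 (1.14 to 1.83) in replicate 2. Nqo1, a quinone reductase and a textbook NRF2 target, was near the limit of detection at 4 reads (4.71 CPM) and 1 read (1.83 CPM).

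The core of the antioxidant response element, through which NRF2 acts, was searched as TGACNNNGC on both strands of RefSeq promoters on GRCm38.p6, each 250 bases before to 50 after a start site. It occurred in the promoters of 8 of 36 members with an entry, or 22.2%, where 14% of all genes with an entry held it. Among other genes of the same pathways, described below, 18 of 67 held it, or 26.9%, so the core was not particular to the members. Counted by promoter, 17% of those of members and 12.4% of all promoters held it. Sites of Prdx1, Mgst1, Gstm5 and Txnrd1 are shown because these were the 4 members with the core that stood farthest apart between the libraries, and that of Nfe2l2 because it encodes NRF2 itself, with the core in capitals, read on the gene's strand. The core of Prdx1 (chr4:116685466-116685474) lies 133 bases before the start site, that of Mgst1 (chr6:138140471-138140479) 56 bases before, that of Gstm5 (chr3:107895812-107895820) 42 bases before, that of Txnrd1 (chr10:82859114-82859122) 92 bases before and that of Nfe2l2 (chr2:75704895-75704903, minus strand) 240 bases before. Those of Prdx1, Mgst1 and Txnrd1 are on the opposite strand. These distances are from RefSeq start sites. The core of Mgst1 lies inside the first exon of Mgst1-201 (chr6:138140316-138140606), the model with 523 of 526 reads in replicate 1, and so after the start of that model.
Prdx1: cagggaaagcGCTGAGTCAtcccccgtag
Mgst1: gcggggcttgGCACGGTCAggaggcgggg
Gstm5: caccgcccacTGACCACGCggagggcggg
Txnrd1: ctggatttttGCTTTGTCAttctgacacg
Nfe2l2: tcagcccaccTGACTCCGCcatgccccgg

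Of the 8 members that hold the core 6 were higher in replicate 1, with log2 ratios of 5.16 for Prdx1, 4.93 for Mgst1, 3.06 for Gstm5, 2.01 for Sod1, 0.86 for Gclm and 0.41 for Srxn1. The other 2 were lower, Txnrd1 at -2.72 and Nfe2l2 at -1.96. Over all 42 gene models tested, 31 were higher and 8 lower, so 6 of 8 is near the share of the members as a whole. A match is a description of these letters and not evidence of binding.

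**Figure D3:**
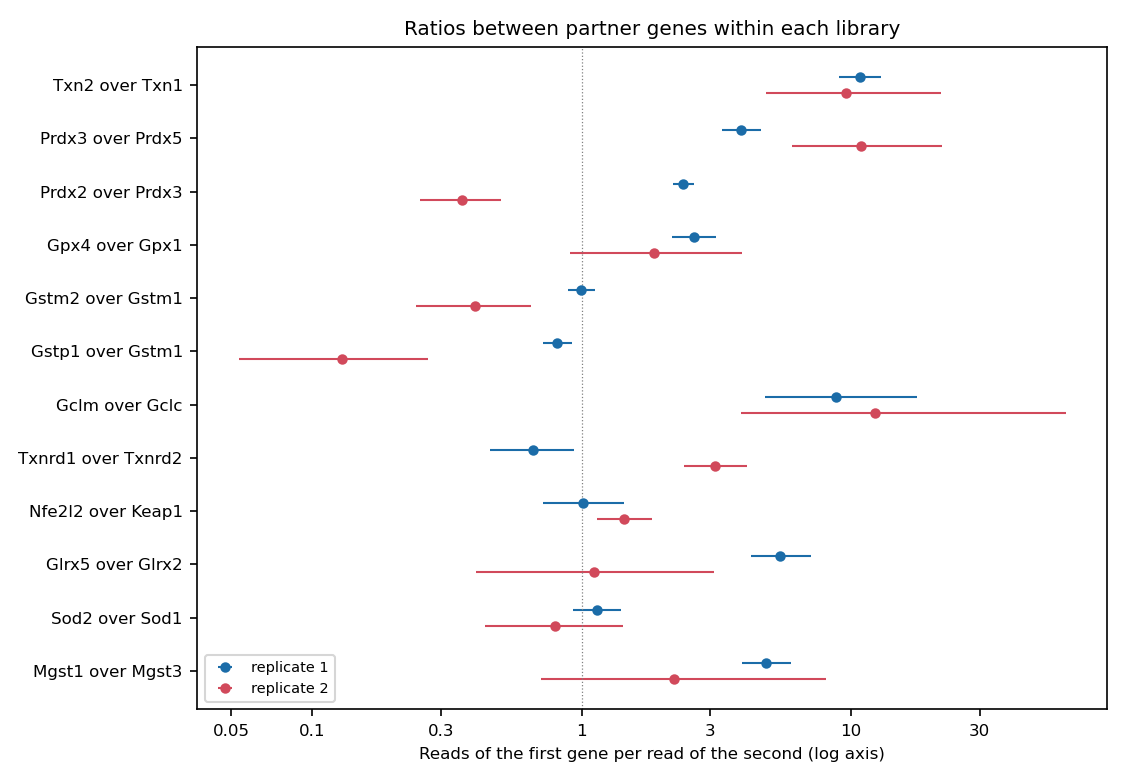
Reads of the first gene per read of the second for 12 pairs of partner genes, on a log axis, in replicate 1 (upper point) and replicate 2 (lower point), with exact 95% intervals. Txn2 over Txn1 and Gclm over Gclc lie far above 1 in both libraries, while Prdx2 over Prdx3 lies at 2.38 in replicate 1 and 0.359 in replicate 2.

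Transcript structures of members were mostly those of the annotation. Known models held 94% of member reads in replicate 1 and 87.8% in replicate 2, against 76.7% and 75.3% of the reads of all annotated genes. Incomplete matches held 2.17% and 2.82% of member reads, against 12.6% and 10.2% over all annotated genes. The use of the leading model was tested for the 2186 genes with at least 20 known or unannotated spliced reads in each library, of which 9.84% differed between the libraries by Fisher's exact test. Of 20 members tested, 4 differed, namely Gpx4, Gstm2, Prdx6 and Txn2, and in each the leading model held more of the reads in replicate 1. Gpx4-202 held 98.3% of 405 reads in replicate 1 and 75% of 20 in replicate 2, where Gpx4-207, with a downstream first exon and a shorter coding part of 471 against 591 bases, held 3 reads. Gstm2-201 held 96.3% of 534 and 64% of 25 reads. Prdx6-202 held 93.9% of 489 and 75.9% of 54 reads, and Prdx6-209, a single-exon retained intron, held 0.409% and 20.4%. Txn2-201 held 89.4% of 1452 and 76.9% of 78 reads, and Txn2-204, which keeps the first intron and the same coding exons, held 5.85% and 14.1%.

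Reads of Keap1 were divided among 4 annotated models, all of which share the same coding exons of 1872 bases and differ in the first exon. Keap1-201 held 63.5% of 63 reads in replicate 1 and 45.6% of 125 in replicate 2, and Keap1-205, whose first exon lies farther upstream, held 9.52% (3.58 to 19.6%) and 32% (23.9 to 40.9%). The test of the leading model did not pass (adjusted p = 0.179, Fisher's exact test). Prdx2-203, with the coding part of Prdx2-201, held 11.8% and 10.3% of Prdx2 reads. The non-coding model Srxn1-203 held 5.41% and 14% of Srxn1 reads, and Sod1-202, a retained intron, held 3.87% and 11.5% of Sod1 reads. In the other 10 members tested, among them Prdx1, Prdx3, Gstm1 and Nfe2l2, the leading model held at least 80.5% of reads in both libraries.

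**Figure D4:**
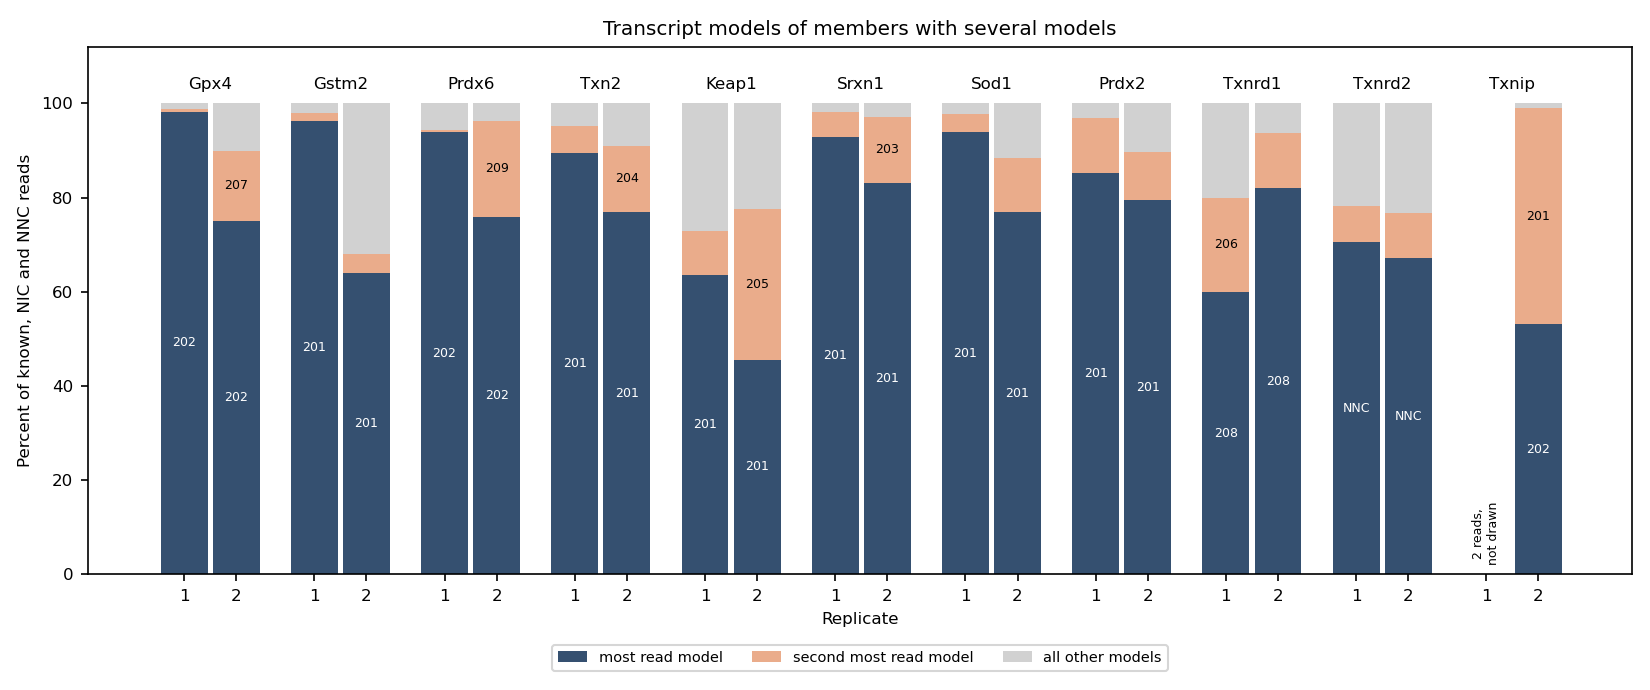
Percent of known, NIC (new combination of known splice sites) and NNC (with a new splice site) reads held by the most read model, the model next to it and all others, for 11 members, in replicate 1 (left bar) and replicate 2 (right bar). Numbers on the bars are the ends of annotated transcript names; Txnrd2 is led by an unannotated model in both libraries, and Txnip had 2 such reads in replicate 1.

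Other genes of the same pathways were taken from a list of 77, of which 69 had a read and 62 were tested. Of these, 30 were higher (27.9% of all genes) and 19 lower (36.6%) in replicate 1, with a median log2 ratio of 0.87, and together they took 0.919% and 1.09% of reads. Of the 6 with the highest mean level, Me1, malic enzyme, which makes NADPH, had 468 reads (551 CPM) in replicate 1 and 2113 reads (3875 CPM) in replicate 2, Tkt, transketolase, 213 and 732, and Idh1, an isocitrate dehydrogenase that also makes NADPH, 450 and 515. Taldo1, transaldolase, went the other way with 1029 reads (1212 CPM) and 41 reads (75.2 CPM). The disulphide exchange proteins Txndc5 and Tmx2 had 197 and 376 reads and 296 and 232 reads. Me1 and Tkt stayed lower in replicate 1 after the length trend was removed, at -1.42 and -1.06, and Taldo1 stayed higher at 1.48.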

How the data were processed

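For each library the authors deposited a table of read counts, whole numbers for each transcript model, with a GTF of the models, made on mm10 with GENCODE M21 per the text deposited with each library; TALON is named in the annotation's source column. Not given in the sources used here: aligner and platform. Reads of all models of an annotated gene were summed, and CPM is reads per 1000000. With 2 libraries of 1 group no count model with residual spread can be fitted, so Fisher's exact test was used (scipy 1.17.1, Python 3.11.15; minimum 10 reads, adjusted p threshold 0.05). TMM came from edgeR 4.0.16 and size factors from DESeq2 1.42.0 (R 4.3.3). Intervals are exact, at 95%, and cover counting error only. Lengths are those of the annotation. Members and lists were chosen with earlier results of these data known. Every member is named with its reads; values in full go to the 12 of highest mean CPM, the 3 highest and 3 lowest log2 ratios, Nnt, Keap1, Nfe2l2, the selenoproteins, and members with at least 20 known or unannotated spliced reads per library whose 2 leading models each hold at least 10% in 1 library. Of other pathway genes the 6 of highest mean CPM are named. Alternatives were other scalings, read minimums, known models only and removal of the length trend. On simulated data the gene test recovered 67.7% of 189 genes changed 4-fold with 1 false call among 9533 genes, and the model test 95.5% of 200 changed genes with 7 false calls among 2186. These rates describe the simulated data only. Whether they hold for these libraries, where 64.4% of all genes passed, was not tested.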

Additional observations from a re-analysis of the deposited data

Results flagged for a closer look

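Reads of unannotated antisense models over members, which enter no comparison above, exceeded in replicate 1 the 3 reads that a count of 0 allows. Over Srxn1 there were 90 such reads in replicate 1 and 2 in replicate 2, set against 271 and 131 reads of Srxn1 itself. Over Sod2 there were 59 and 5, and over Txn2 27 and 2. Over Mgst3 there were 6 reads in replicate 1 and 0 in replicate 2, and over Gsr 4 and 0. Nearly all came from models with 1 exon: 0 spliced reads over Srxn1, Sod2 and Mgst3, 2 over Txn2 and 1 over Gsr in replicate 1.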

How the results depend on the processing

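Removing the length trend changed more counts than any other alternative run. With the length trend removed, 17 members were higher in replicate 1 where 31 were as read, other pathway genes called higher were 18 and lower 10 (30 and 19 as read), and all genes called lower were 1824 (3611 as read). With unannotated spliced models in the length, an alternative chosen after seeing the data, these were 16, 15, 11 and 1739. The members' median log2 ratio of 2.82 was 3.25 with TMM, 3.30 with DESeq2 size factors and 0.70 with the length trend removed. Log2 ratios reversed with the length trend removed were Keap1 at 0.12 (0.12 with the unannotated models), Sod1 at -1.45 (-1.57), Gpx1 at -0.19 (-0.23) and Gstm5 at -0.22 (-0.37), and with the unannotated models also Gstt1 at -0.15 and Gsto1 at -0.03. Txnrd2 was at 0.06 with DESeq2 size factors. Txnrd2 has 7 known reads of a transcript of 532 bases, on which its -4.10 rests; it was -0.63 with the unannotated models. With known reads only, 2 of 12 members differed in the leading model, where 11.9% of all genes did. The members' share of known reads was 2.14% in replicate 1 and 0.574% in replicate 2, and the share of all reads ranged from 0.474% without replicate 1 to 1.65% without replicate 2. No paired analysis was possible because the series has 1 group. Replicate 2 had under 30 reads for many members, which limits their intervals.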

Other observations

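For the members that lay farthest above genes of their length, models other than the known one ended well inside the annotated last exon. Model ends were looked up for these members only, so whether other genes differ in this was not tested. For Prdx1, whose known model Prdx1-204 is annotated at 2294 bases, all 15 such reads that ended in the last exon in replicate 1 ended 1550 bases before its annotated end. For Sod2, annotated at 5861 bases, all 10 in replicate 1 ended 4518 bases before it. For Glrx5, annotated at 2925 bases, 8 of 9 ended 2167 bases before it, and for Prdx6, annotated at 2387 bases, 17 of 18 ended 903 bases before it. For Glrx2, annotated at 3337 bases, both reads in each library ended 2627 bases before it. In replicate 2 only 2 such reads each were found for Prdx1, Sod2 and Prdx6: for Prdx1 the most common end lay 415 bases before the annotated one and for Sod2 2212 bases (1 read each), and for Prdx6 both lay 903 bases before it. Prdx1, Sod2, Glrx5, Prdx6 and Glrx2 had log2 ratios of 6.02, 3.42, 5.99, 3.46 and 3.70 after the length trend was removed. Model ends are shared among reads and the ends of single reads are not in the files used here, so the true length of the known reads, and its part in these ratios, was not tested.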
